A study of Danio rerio with 3 samples.

Results

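Genes of the neuronal cytoskeleton and synapse were followed in zebrafish embryos (Danio rerio, Tuebingen strain) at 24 hours post fertilization, after injection of a morpholino against hnrnpaba. The set was a list of 36 gene symbols, and its members were the rows of the deposited table that carry 1 of those symbols. In all 32 of the 36 symbols had such a row, out of 25961 genes in the table. The list was drawn up by gene function, without a threshold on the values but with earlier results of these data known.

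There were 3 libraries, each made from 30 whole embryos of separate experiments, injected at the 1-cell stage and pooled. The sample titles call the agent HNRNPAB morpholino. One group received 6 ng of it, one received 3 ng, and one received 3 ng of a standard control morpholino. Morpholinos are antisense oligomers that bind an RNA and keep it from being translated or spliced. hnrnpaba is a zebrafish counterpart of human HNRNPAB, a nuclear ribonucleoprotein that binds RNA. The control library matches the 3 ng library in mass of morpholino, but not the 6 ng library. With 1 library a group there is no replicate check and no test, and no p-value is given. What follows compares these libraries, which need not stand for the conditions.

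Newly born neurons of the vertebrate nervous system leave the cell cycle, turn on RNA-binding proteins of the Elavl family, and extend an axon. The axon needs tubulin, proteins that regulate microtubules at the growth cone, and later neurofilaments. Synapses then form, where SNARE proteins on the vesicle and on the plasma membrane drive the release of transmitter. In zebrafish of this stage the first circuits of the spinal cord, with Rohon-Beard sensory neurons and primary motor neurons, are already in place, and most of the brain is still making neurons. Several of the genes, among them the tubulins, the brain creatine kinase ckbb and ywhag2, are also expressed outside neurons.

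Values are FPKM, fragments per kilobase of gene model scaled by the mapped fragments of the library, so levels can be compared between genes. The libraries held 13557636 (6 ng), 17748075 (3 ng) and 14589056 (control) fragments, recovered from the steps between FPKM values. A fold is the ratio of FPKM in 2 libraries, with a 95% exact interval (Clopper-Pearson) that covers counting error only. A log2 difference is the log2 ratio of FPKM + 1, which understates the differences of low genes, and a gene was counted as 2-fold higher or lower at a log2 difference of 1 or more in size. The filter for counting a gene was a mean level of at least 1 FPKM across the libraries, which 16429 genes passed. Of the 32 members 31 passed, each of them above 1 FPKM in every library, and the neurofilament gene neflb did not. The target gene hnrnpaba stood at 342 FPKM at 6 ng, 459 FPKM at 3 ng and 442 FPKM in the control, with folds of 0.773 (0.755 to 0.793) and 1.04 (1.02 to 1.06) over the control at 6 ng and 3 ng. The morpholino's mode of action (translation or splicing) was not given in the sources used here. These levels therefore do not check the labels.

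At 6 ng most of the neuronal genes were somewhat lower than in the control, few were far from it, and a minority was higher. Of the 31 members 2 were at least 2-fold lower, the neuronal RNA-binding protein gene elavl3 and the transcription factor gene onecut1, against 4.53% of all 16429 genes. No member was at least 2-fold higher (0 of 31), against 6.28% of all genes, and over all genes 10.8% were past 2-fold either way. The count of 2 lower members was 0 with a pseudocount of 5 FPKM and 1 (elavl3) with a filter of 5 FPKM. It was 4 after rescaling by the median ratio, where all genes split into 865 higher and 881 lower. After centring on genes of similar length it was 5, where all genes split into 780 higher and 905 lower. As deposited, all genes split into 1032 higher and 745 lower. The median log2 difference of the members was -0.29, with quartiles of -0.73 and 0.01, while the median of all genes was 0.08. In all 23 members were below the control and 8 above it, of which nefma changed side when the libraries were rescaled by their median ratio. Over all genes 44.0% were below the control and 56.0% above it. The counting interval of the fold lay below 1 for 17 members, against 28% of all genes, and above 1 for 6, against 38.5%. Those 6 were gap43, stmn2b, nefmb, rtn1b, ywhag2 and isl2a. These intervals are for the values as deposited. After rescaling by the median ratio the log2 difference of gap43 was 0.147, less than the half-width of its interval (0.160).

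At 3 ng the same comparison gave differences on either side of the control. The median log2 difference of the members was -0.05, against 0.02 for all genes, with 18 members below the control and 13 above it. Over all genes 48.1% were below the control and 51.9% above it. Of the 31 members 1, onecut1, was at least 2-fold lower, against 2.2% of all genes, and 0 were at least 2-fold higher, against 3.68%. The call of onecut1 was lost with a pseudocount of 5 FPKM, and a filter of 5 FPKM takes the gene out. Over all genes 5.87% were past 2-fold either way. The counting interval lay below 1 for 12 members, against 29.2% of all genes, and above 1 for 10, against 32%. The 6 ng and 3 ng libraries were set against 1 shared control library, so the 2 comparisons are not independent of each other.

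The 6 ng and 3 ng libraries could be compared without the control. Of the 31 members 30 were lower at 6 ng than at 3 ng, and the exception was the motor and sensory neuron transcription factor gene isl2a. After rescaling to equal sums of FPKM, ywhag2 and isl2b were on the higher side as well. Over all genes 42.5% were lower at 6 ng than at 3 ng. The members' median log2 difference was -0.29, against 0.05 for all genes, and the differences ran from -0.58 (gng3) to 0.17 (isl2a). None of the 31 was 2-fold apart in either direction, where of all genes 1.11% were 2-fold higher, 0.992% were 2-fold lower and 2.11% were past 2-fold either way. The counting interval lay below 1 for 21 members, against 17.7% of all genes, and above 1 for 1, against 28.2%.

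**Figure D1:**
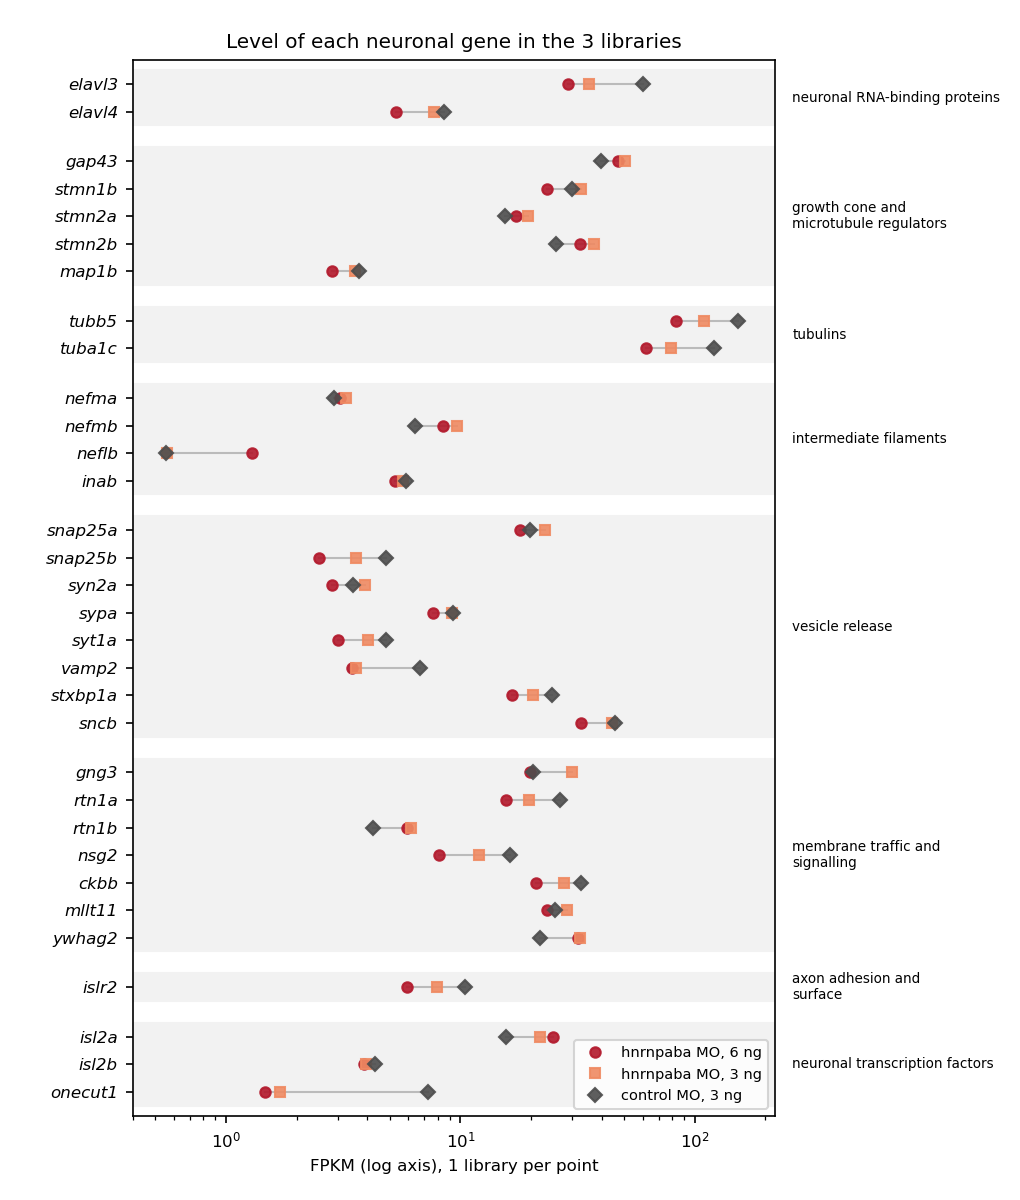
FPKM (log axis) of the 32 neuronal genes in the 6 ng, 3 ng and control libraries, 1 point per library, grouped by the role of the protein. The tubulin genes tubb5 and tuba1c stand highest in each library, and the widest gap between the control and both hnrnpaba morpholino libraries is that of onecut1.

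In whole embryos, fewer neurons and less RNA per neuron cannot be told apart, and this holds for every value that follows. The summed level of the 32 members was 568 FPKM at 6 ng, 698 FPKM at 3 ng and 776 FPKM in the control, or 0.122%, 0.145% and 0.171% of the summed FPKM of all genes. The tubulins tubb5 and tuba1c made up 25.6% of the members' sum at 6 ng, 26.9% at 3 ng and 35.2% in the control. Without these 2 genes, which were set apart after their values were seen, the sums were 423 FPKM at 6 ng, 510 FPKM at 3 ng and 503 FPKM in the control. As shares of the summed FPKM of all genes these were 0.0906% at 6 ng, 0.106% at 3 ng and 0.111% in the control. The tubulins alone summed to 145 FPKM at 6 ng, 188 FPKM at 3 ng and 273 FPKM in the control.

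Elavl proteins bind and stabilise neuronal RNAs and are the usual markers of neurons that have left the cell cycle. elavl3 (ENSDARG00000014420, chromosome 3, 46800190 to 46818001, minus strand) stood at 28.7 FPKM at 6 ng, 35.4 FPKM at 3 ng and 60.03 FPKM in the control, from 1801, 2910 and 4054 fragments. Both hnrnpaba morpholino libraries were below the control, the 6 ng library further. Its fold over the control was 0.478 (0.452 to 0.505) at 6 ng and 0.590 (0.562 to 0.619) at 3 ng, while the 6 ng level was 0.810 of the 3 ng level (0.764 to 0.860). elavl4 (chromosome 8, 16004154 to 16117112, plus strand), a second member of the family, stood at 5.31 FPKM at 6 ng, 7.73 FPKM at 3 ng and 8.497 FPKM in the control. Its fold was 0.625 (0.537 to 0.726) at 6 ng, and at 3 ng its interval included 1, with a fold of 0.910 (0.802 to 1.03).

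Tubulins form the microtubules of the axon. tubb5 (ENSDARG00000037997, chromosome 16, 10318893 to 10327620, plus strand), a beta tubulin, stood at 83.4 FPKM at 6 ng, 109 FPKM at 3 ng and 153 FPKM in the control. tuba1c (ENSDARG00000055216, chromosome 23, 35690657 to 35694461, minus strand), an alpha tubulin, stood at 61.9 FPKM at 6 ng, 78.9 FPKM at 3 ng and 121 FPKM in the control. Both were the highest genes of the set in each library and were lower at each dose. At 6 ng the fold over the control was 0.546 (0.521 to 0.573) for tubb5 and 0.512 (0.471 to 0.557) for tuba1c. At 3 ng it was 0.715 (0.687 to 0.744) for tubb5 and 0.653 (0.608 to 0.701) for tuba1c. On the log2 scale with its pseudocount they reached -0.86 and -0.95 at 6 ng, short of the 2-fold limit. Tubulin genes are a family of close copies, so the division of their reads is uncertain, and tubb5 also overlaps another gene on its own strand.

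The genes of the growth cone went in both directions at 6 ng, with 3 of 5 above the control and 2 below it. Over all genes 56.0% were above the control and 44.0% below it. gap43 (chromosome 15, 47161917 to 47176151, plus strand), a membrane protein of growing axon tips, stood at 47.1 FPKM at 6 ng, 50.5 FPKM at 3 ng and 39.7 FPKM in the control. The stathmins bind free tubulin and destabilise microtubules. stmn2b (chromosome 19, 31771270 to 31790551, plus strand) stood at 32.3 FPKM at 6 ng, 37.2 FPKM at 3 ng and 25.5 FPKM in the control, and stmn2a at 17.2, 19.5 and 15.5 FPKM in the same libraries. All 3 genes were above the control at both doses, and all 3 were highest in the 3 ng library. At 6 ng the fold of gap43 was 1.19 (1.06 to 1.33) and that of stmn2b 1.27 (1.14 to 1.41). At 3 ng gap43 had a fold of 1.27 (1.15 to 1.41) and stmn2b one of 1.46 (1.33 to 1.61). For stmn2a the 6 ng interval included 1, with a fold of 1.11 (0.977 to 1.26).

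The other growth cone genes were lower at 6 ng. stmn1b stood at 23.3 FPKM at 6 ng, 32.7 FPKM at 3 ng and 29.9 FPKM in the control, with folds over the control of 0.782 (0.698 to 0.875) at 6 ng and 1.096 (0.995 to 1.21) at 3 ng. It overlaps paqr7b on the same strand. map1b, which binds microtubules in growing axons, stood at 2.85 FPKM at 6 ng, 3.54 FPKM at 3 ng and 3.71 FPKM in the control, with a fold of 0.767 (0.670 to 0.878) at 6 ng. Both genes were thus below the control at 6 ng, beyond counting error, and at 3 ng their intervals included 1.

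Neurofilaments and internexin are the intermediate filaments of axons. nefmb (chromosome 8, 6863462 to 6866890, plus strand), a medium neurofilament chain, stood at 8.43 FPKM at 6 ng, 9.68 FPKM at 3 ng and 6.39 FPKM in the control. Its fold over the control was 1.32 (1.11 to 1.56) at 6 ng, and at 3 ng it was 1.51 (1.30 to 1.77). Next to it on the chromosome, with 6963 bp from the end of nefmb to the start of neflb and the opposite strand, lies the light chain gene neflb. neflb was the lowest member in each library, at 1.29 FPKM at 6 ng, 0.562 FPKM at 3 ng and 0.555 FPKM in the control, from 56, 32 and 26 fragments. Its 6 ng level stood apart from the other libraries, with a fold of 2.32 (1.43 to 3.85) over the control and 2.29 (1.46 to 3.66) over 3 ng. It was under the filter and entered no count. The intervals of nefma (3.08, 3.24 and 2.88 FPKM at 6 ng, 3 ng and in the control) and of the internexin gene inab (5.24, 5.69 and 5.84 FPKM in that order) included 1 in every comparison. nefma overlaps the ribosomal protein gene rpl17 on the opposite strand, and whether strand was used in counting was not given in the sources used here.

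All 8 genes of vesicle release were below the control at 6 ng, with a median log2 difference of -0.51, and for 6 of them the counting interval lay below 1. At 3 ng 6 of the 8 were below the control and the median was -0.13. Over all genes 44.0% were below the control at 6 ng and 48.1% at 3 ng, and the 6 ng interval lay below 1 for 28%. stxbp1a, whose protein binds syntaxin and is needed for vesicle fusion, stood at 16.5 FPKM at 6 ng, 20.5 FPKM at 3 ng and 24.6 FPKM in the control, with folds of 0.670 (0.613 to 0.732) and 0.831 (0.769 to 0.898) at 6 ng and 3 ng. syt1a, the calcium sensor of release, stood at 3.01 FPKM at 6 ng, 4.05 FPKM at 3 ng and 4.84 FPKM in the control, with a fold of 0.621 (0.523 to 0.737) at 6 ng. Both were lower at 6 ng than at 3 ng, and lower at 3 ng than in the control. This order held for 18 of the 31 members and for 21.5% of all genes.

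The vesicle SNARE gene vamp2 stood at 3.45 FPKM at 6 ng, 3.58 FPKM at 3 ng and 6.72 FPKM in the control, from 42, 57 and 88 fragments. It was below the control at both doses, with folds of 0.514 (0.347 to 0.750) at 6 ng and 0.532 (0.375 to 0.751) at 3 ng. The interval between the doses included 1 (0.965, 0.632 to 1.46). The beta synuclein gene sncb, a presynaptic protein, was lower at 6 ng (32.7 FPKM) than at 3 ng (44.2 FPKM) and in the control (45.7 FPKM), with a fold over the control of 0.715 (0.601 to 0.849) at 6 ng. The vesicle membrane gene sypa followed the same order at 7.62 FPKM at 6 ng, 9.22 FPKM at 3 ng and 9.30 FPKM in the control, and its interval at 3 ng included 1 (0.992, 0.896 to 1.097). The synapsin gene syn2a, which tethers vesicles, stood at 2.84 FPKM at 6 ng, 3.93 FPKM at 3 ng and 3.49 FPKM in the control, and its intervals against the control included 1 at both doses.

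Genes of membrane traffic and signalling were spread widely around the control at 6 ng, with 2 of 7 above it and 5 below. Over all genes 56.0% were above the control and 44.0% below it. nsg2, an endosomal protein of neurons, stood at 8.14 FPKM at 6 ng, 11.98 FPKM at 3 ng and 16.2 FPKM in the control, with folds of 0.502 (0.417 to 0.603) and 0.738 (0.635 to 0.858) at 6 ng and 3 ng. ckbb, the brain creatine kinase that buffers ATP, stood at 20.99 FPKM at 6 ng, 27.8 FPKM at 3 ng and 32.6 FPKM in the control, with a fold of 0.644 (0.579 to 0.715) at 6 ng. Both were lower than the control at each dose. ywhag2, an adaptor that binds phosphorylated proteins, went the other way at 31.6 FPKM at 6 ng, 32.2 FPKM at 3 ng and 21.9 FPKM in the control, with folds of 1.44 (1.32 to 1.58) and 1.47 (1.35 to 1.60).

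The G protein gamma subunit gene gng3 stood at 19.8 FPKM at 6 ng, 30.1 FPKM at 3 ng and 20.4 FPKM in the control. It was high at 3 ng alone, with a fold over the control of 1.47 (1.29 to 1.67), while at 6 ng the interval included 1 (0.967, 0.832 to 1.12). It overlaps another gene on the opposite strand. mllt11, given in the table as a cofactor of a transcription factor, had the same order at a smaller distance, with 23.4 FPKM at 6 ng, 28.6 FPKM at 3 ng and 25.2 FPKM in the control.

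islr2, a surface protein of developing neurons with leucine-rich and immunoglobulin repeats, was the 1 member with a role at the axon surface. It stood at 5.92 FPKM at 6 ng, 7.97 FPKM at 3 ng and 10.4 FPKM in the control, with folds of 0.568 (0.489 to 0.659) and 0.765 (0.674 to 0.868). The other axon surface genes of the list, cntn2 and l1camb, had rows without a symbol and were identified by their Ensembl identifiers, so they entered no count. cntn2, an axonal adhesion protein, stood at 2.46 FPKM at 6 ng, 2.15 FPKM at 3 ng and 5.15 FPKM in the control, and its folds of 0.478 (0.379 to 0.5998) at 6 ng and 0.418 (0.335 to 0.519) at 3 ng had intervals below 1. l1camb, an adhesion protein of the L1 family, stood at 3.06 FPKM at 6 ng, 3.66 FPKM at 3 ng and 3.02 FPKM in the control, with a fold of 1.01 (0.830 to 1.24) at 6 ng. dcx and ina were not analysed here.

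At 6 ng over the control, the transcription factors onecut1 and isl2a had the lowest and the highest log2 difference of the 31 members. At 3 ng over the control onecut1 was again the lowest, and the highest was ywhag2 at 0.54. onecut1 (ENSDARG00000007982, chromosome 18, 38755023 to 38760271, plus strand), a homeodomain factor of differentiating neurons that is also known from liver and pancreas, stood at 1.47 FPKM at 6 ng, 1.70 FPKM at 3 ng and 7.30 FPKM in the control. These levels came from 37, 56 and 198 fragments. The fold was lowest among the 32 members at each dose, 0.201 (0.138 to 0.287) with 6 ng and 0.232 (0.170 to 0.314) with 3 ng, and its log2 differences were -1.75 and -1.62. Of all genes above the filter 0.876% had a lower log2 difference at 6 ng and 0.402% at 3 ng. Between 6 ng and 3 ng its interval included 1 (0.865, 0.555 to 1.33).

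isl2a (ENSDARG00000003971, chromosome 25, 32746014 to 32751982, minus strand), a LIM homeodomain factor of primary motor neurons and Rohon-Beard neurons, stood at 24.7 FPKM at 6 ng, 21.9 FPKM at 3 ng and 15.7 FPKM in the control. Its log2 difference at 6 ng was 0.63, with folds of 1.58 (1.38 to 1.802) at 6 ng and 1.396 (1.23 to 1.59) at 3 ng. Its level was highest at 6 ng and lowest in the control, an order shared by 31.0% of all genes. The fold between 6 ng and 3 ng was 1.13 (1.01 to 1.27), with a lower bound close to 1. Rescaling by the median ratio moved the median log2 difference of all genes in this comparison by -0.057.

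**Figure D2:**
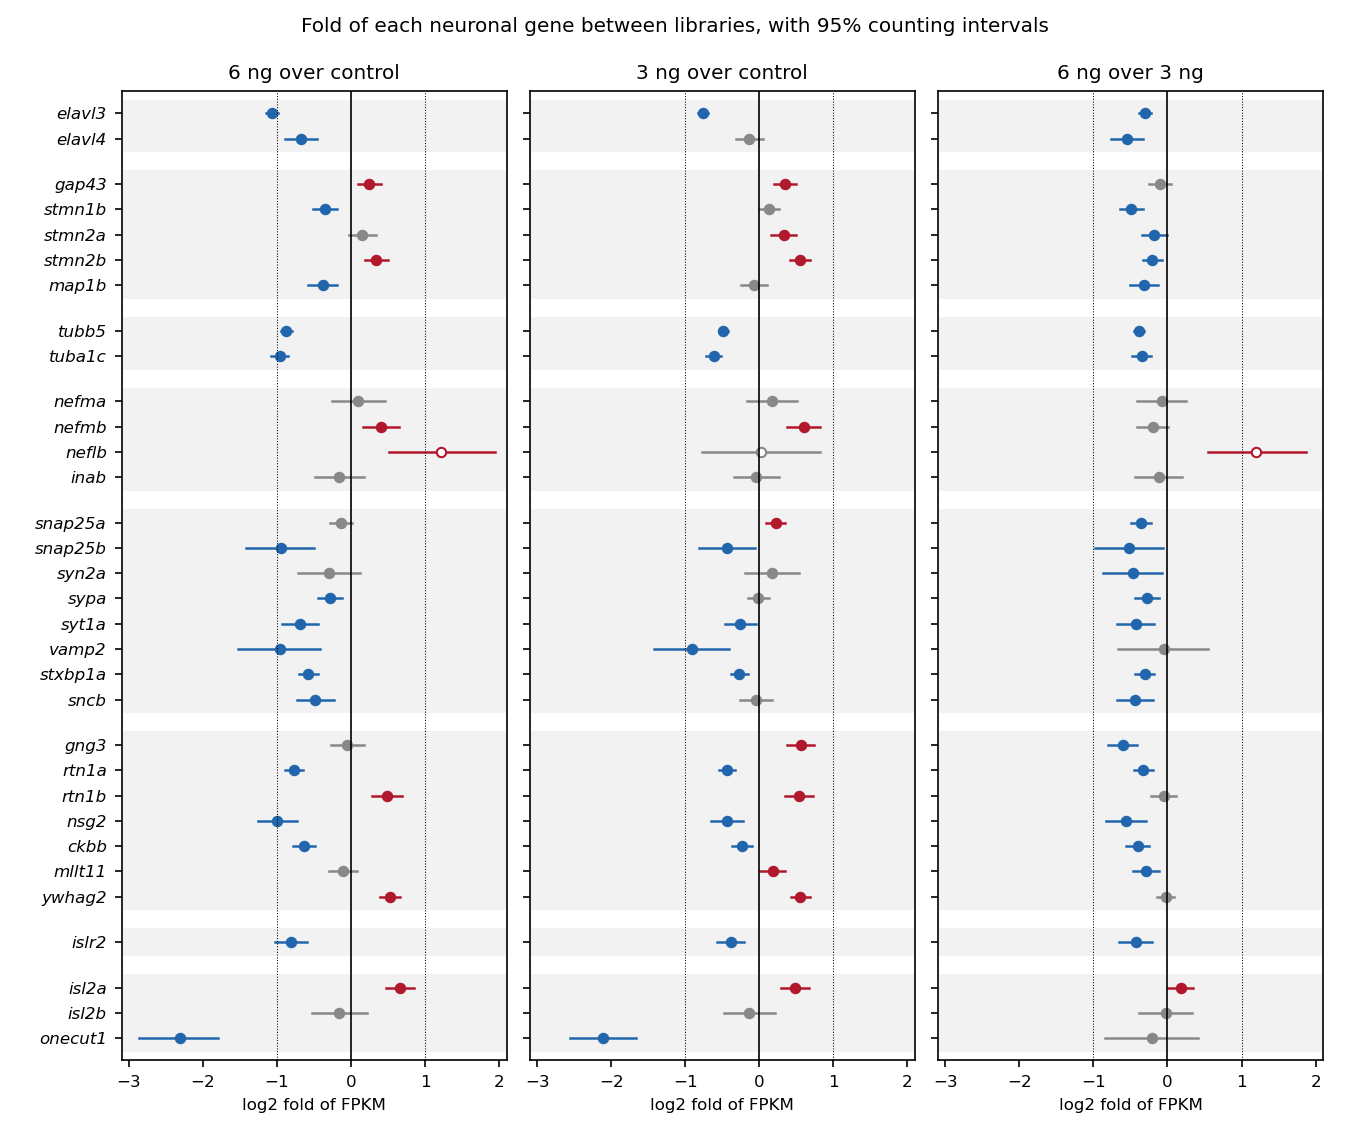
log2 fold of FPKM of each neuronal gene, 6 ng over control, 3 ng over control and 6 ng over 3 ng, with 95% exact intervals for counting error, 1 library per group. Red points have intervals above 0, blue points below 0 and grey points include 0, the open point is neflb, which is under the filter, and dotted lines mark a 2-fold difference. In the panel of 6 ng over 3 ng, 21 of the 31 genes above the filter lie below 0 with their interval and 1, isl2a, lies above it.

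Zebrafish carry many genes in duplicate copies from a genome duplication in the ancestor of teleost fish, and both copies were members for 5 genes. The copies of 3 of these pairs differed in their fold over the control at 6 ng beyond counting error. rtn1a, a reticulon of the endoplasmic reticulum (chromosome 13, 31424586 to 31470439, minus strand), stood at 15.7 FPKM at 6 ng, 19.6 FPKM at 3 ng and 26.6 FPKM in the control. Its copy rtn1b (chromosome 20, 20637866 to 20696957, plus strand) stood at 5.94 FPKM at 6 ng, 6.16 FPKM at 3 ng and 4.25 FPKM in the control. The copies thus lay on opposite sides of the control at both doses, rtn1a below and rtn1b above it. The fold of rtn1a divided by that of rtn1b was 0.420 (0.357 to 0.494) at 6 ng and 0.508 (0.438 to 0.589) at 3 ng. rtn1a made up 72.5% of the summed FPKM of the pair at 6 ng, 76.1% at 3 ng and 86.2% in the control.

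The copies of isl2 and of snap25 parted in the other direction, with the b copy further down. isl2b stood at 3.89 FPKM at 6 ng, 3.95 FPKM at 3 ng and 4.34 FPKM in the control, where isl2a was above the control, and the ratio of their folds (a over b) was 1.76 (1.32 to 2.35) at 6 ng and 1.53 (1.17 to 2.01) at 3 ng. snap25 encodes a SNARE protein of the plasma membrane. snap25a stood at 17.99 FPKM at 6 ng, 23.0 FPKM at 3 ng and 19.8 FPKM in the control, whereas snap25b stood at 2.502 FPKM at 6 ng, 3.58 FPKM at 3 ng and 4.84 FPKM in the control. In both pairs the b copy was the lower one in every library and had the smaller fold, though the interval of isl2b included 1. The ratio of the folds of snap25a and snap25b was 1.76 (1.27 to 2.46) at 6 ng and 1.58 (1.197 to 2.08) at 3 ng. For stmn2a over stmn2b and nefma over nefmb the ratios at 6 ng were 0.875 (0.741 to 1.03) and 0.810 (0.598 to 1.097), with intervals that included 1. At 3 ng these ratios were 0.859 (0.738 to 0.9998) and 0.743 (0.562 to 0.984), with intervals that excluded 1, the first of them barely. Between 6 ng and 3 ng the interval of the ratio excluded 1 for rtn1a over rtn1b (0.826, 0.713 to 0.958) and included it for the other 4 pairs.

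**Figure D3:**
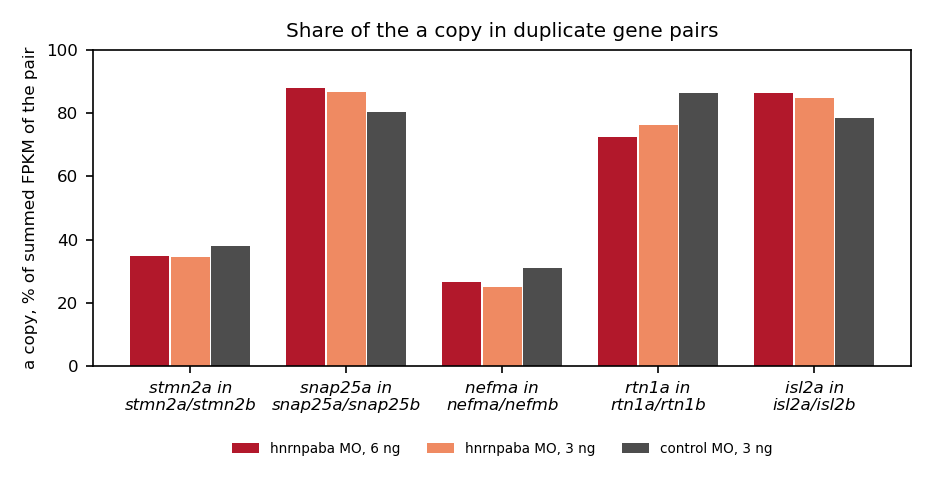
Share of the a copy in the summed FPKM of 5 duplicate gene pairs, in percent, in the 6 ng, 3 ng and control libraries (1 library per bar, no error bar). rtn1a makes up 72.5% of its pair at 6 ng, against 86.2% in the control, while isl2a reaches 86.4% at 6 ng, against 78.3% in the control.

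Neuronal genes outside the set were read from lists chosen by function, with earlier results of these data known. Over all genes 4.53% were at least 2-fold lower at 6 ng and 6.28% at least 2-fold higher. At 3 ng these shares were 2.2% and 3.68%. Of 26 further genes of synaptic vesicles and release above the filter, 0 were 2-fold higher or lower at either dose, with median log2 differences of -0.24 at 6 ng and -0.03 at 3 ng. The gene of this list furthest from the control at 6 ng was dnajc5aa, a vesicle chaperone, at 3.62 FPKM at 6 ng, 5.92 FPKM at 3 ng and 7.601 FPKM in the control. Of 16 Rohon-Beard and trigeminal sensory genes, 0 were 2-fold higher or lower at either dose, and the medians were 0.02 and -0.03. At 6 ng 8 of the 16 were above the control and 8 below it, and the counting interval lay below 1 for 6 and above 1 for 3. Over all genes 44.0% were below the control at 6 ng, and the interval lay below 1 for 28% and above 1 for 38.5%. The ATP receptor gene p2rx3b of sensory neurons was higher in both hnrnpaba morpholino libraries, with folds of 1.72 (1.26 to 2.37) at 6 ng and 1.98 (1.49 to 2.67) at 3 ng. The intermediate filament gene prph and the growth factor homologue gene fgf13b were lower at 6 ng, with folds of 0.620 (0.404 to 0.937) and 0.638 (0.502 to 0.807). Of 32 further tubulin and microtubule genes, 2 (stmn1a and dpysl5a) were 2-fold lower at 6 ng and 0 higher (median -0.30). At 3 ng 1 (stmn1a) was 2-fold lower and 0 higher. stmn1a stood at 13.1 FPKM at 6 ng, 21.1 FPKM at 3 ng and 48.8 FPKM in the control, and the alpha tubulin gene tuba8l4 at 435 FPKM at 6 ng, 541 FPKM at 3 ng and 868 FPKM in the control.

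The lists of transcription factors, RNA-binding proteins and transmitter genes had lower medians at 6 ng than the members, and the list of axon guidance and adhesion genes did not. Over all genes 4.53% were at least 2-fold lower at 6 ng and 6.28% at least 2-fold higher. Of 38 neuronal transcription factor genes 15 were past 2-fold below the control at 6 ng and 0 above it. The list had medians of -0.78 at 6 ng and -0.38 at 3 ng. They included pou3f1 (4.09 FPKM at 6 ng, 10.8 FPKM at 3 ng and 32.7 FPKM in the control) and neurod4 (7.39, 15.2 and 29.2 FPKM in the same libraries). Some of these genes, such as neurog1, are expressed in dividing progenitors rather than in mature neurons. Of 15 further neuronal RNA-binding protein genes 6 were past 2-fold below the control at 6 ng and 0 above it (median -0.88). Among them the splicing regulators nova1 and nova2 had folds of 0.208 (0.157 to 0.272) and 0.271 (0.255 to 0.287), and msi1, which is best known from neural progenitors, had 0.339 (0.311 to 0.369). Of 12 genes of transmitter synthesis and transport 2 (gad2 and slc6a5, of inhibitory neurons) were at least 2-fold lower, with a median of -0.76. Of 37 genes of axon guidance and adhesion 6 were past 2-fold below the control at 6 ng and 0 above it (median -0.18). The counting interval lay below 1 for 18 of the 37 and above 1 for 15, against 28% and 38.5% of all genes. Furthest below the control at 6 ng was ncam1b (1.94 FPKM at 6 ng, 5.62 FPKM at 3 ng and 14.02 FPKM in the control). At 3 ng the counts 2-fold below the control were 4 of 38, 2 of 15, 0 of 12 and 3 of 37 in the order above. The 4 include onecut2, which was under 1 FPKM in both hnrnpaba morpholino libraries and passed the filter through its control level. Such a gene is favoured for a lower call by the filter. Whether other genes of these lists passed in this way was not checked. The counts 2-fold above it were 0 in each list. Over all genes 2.2% were 2-fold lower at 3 ng and 3.68% higher. Whether these lists differ from the members beyond chance was not tested.

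**Figure D4:**
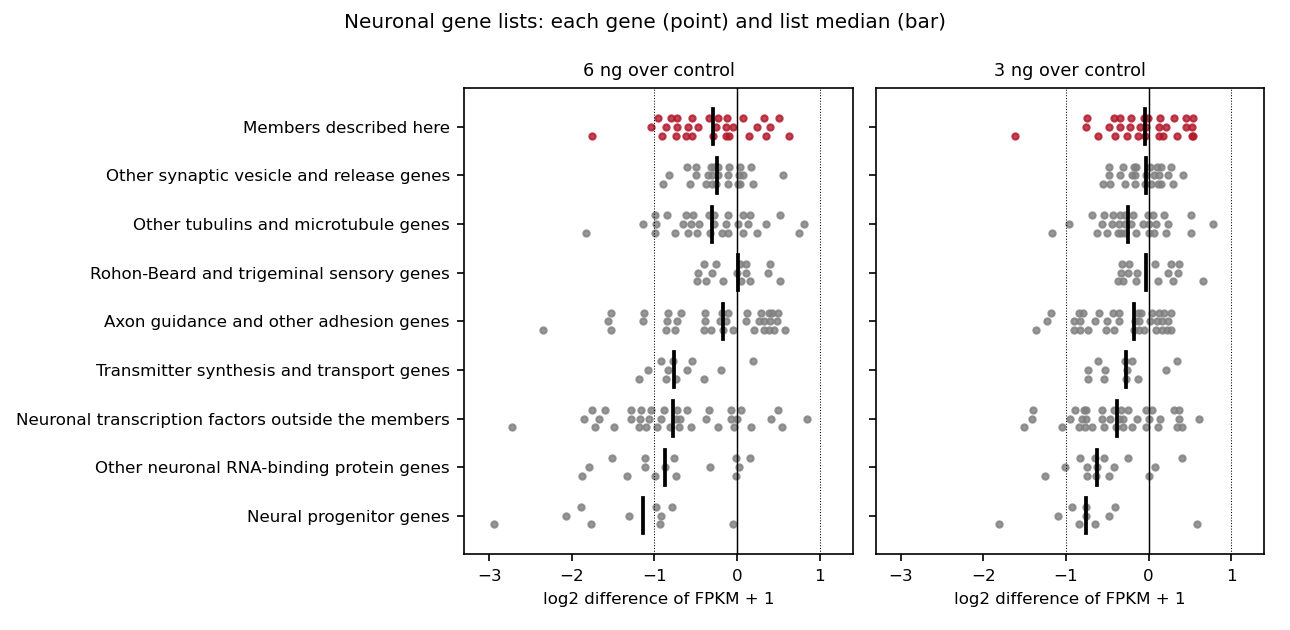
log2 difference of FPKM + 1 for each gene above the filter (points) and the median of each list (black bars), 6 ng over control on the left and 3 ng over control on the right, 1 library per group. The 31 members have medians of -0.29 at 6 ng and -0.05 at 3 ng, and the 10 neural progenitor genes have medians of -1.14 and -0.76.

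Markers of other cells of the embryo also differed between the libraries. Over all genes 44.0% were below the control at 6 ng and 48.1% at 3 ng. All 10 neural progenitor markers were below the control at 6 ng and 5 of them at least 2-fold, against 4.53% of all genes. Their summed level was 202 FPKM at 6 ng, 345 FPKM at 3 ng and 592 FPKM in the control. The 6 epidermis markers summed to 13876 FPKM at 6 ng, 11041 FPKM at 3 ng and 10104 FPKM in the control, and the 6 erythroid markers to 1364, 1529 and 598 FPKM in the same libraries. The 5 measured notochord markers summed to 966 FPKM at 6 ng, 809 FPKM at 3 ng and 493 FPKM in the control. The 5 measured muscle markers summed to 3074 FPKM at 6 ng, 3793 FPKM at 3 ng and 4193 FPKM in the control. Of these muscle markers 1 was above the control at 6 ng and 2 at 3 ng. The 6 lens markers summed to 5.41 FPKM at 6 ng, 23.7 FPKM at 3 ng and 59.1 FPKM in the control, and cryaa was the 1 marker listed at 0, in the 3 ng library. The 5 genes of oligodendrocyte and ventral cord precursors summed to 38.5 FPKM at 6 ng, 83.04 FPKM at 3 ng and 171.7 FPKM in the control. Of these 5 genes 4 were below the control and 1 above it at each dose. The 8 neuron markers outside the set summed to 47.6 FPKM at 6 ng, 59.8 FPKM at 3 ng and 73.9 FPKM in the control. Of the 7 above the filter 5 were below the control and 2 above it at each dose. Their median log2 differences were -0.23 at 6 ng and -0.04 at 3 ng. The sum includes neurod4, which was the 1 gene of these 7 at least 2-fold lower at 6 ng. The levels of neurod4, given above, make up most of the difference of this sum from the control at each dose. The part of these differences in the levels of the neuronal genes was not tested.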

How the data were processed

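RNA was sequenced on a BGISEQ-500 and mapped to a zebrafish genome and its genes, per the labels' protocols. The aligner, counter, genome build and use of strand were not given in the sources used here. Values are FPKM, per the name of the 1 table the authors deposited, and coordinates are those of that table. Each library was mapped to its column by name, and the control column, whose name gives no dose, by being the 1 control.

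Fragments were recovered for 25959 genes (99.99%) as the shortest gene length that made all 3 libraries whole, within at most 0.05 fragments. A length too short by a common factor makes counts too low and intervals too wide. Recovery was checked on simulated data (Python 3.11.15, numpy 2.4.6, scipy 1.17.1). The intervals were checked there on the simulated counts and not on the recovered ones, so that check does not cover errors of recovery. Intervals of ratios of folds are conditional exact intervals of the 2 by 2 table of fragments.

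All matched members may be named, and from each other list the 3 genes above the filter furthest from the control at 6 ng. The genes under other observations were picked outside this rule. Members and lists were chosen with earlier results of these data known. Other lists were matched by symbol and then by gene identifier. Alternatives were pseudocounts, filters and scalings.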

Additional observations from a re-analysis of the deposited data

How the results depend on the processing

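The number of members at least 2-fold lower at 6 ng, 2 with the reported settings, was 0 with a pseudocount of 5 FPKM and 1 with a filter of 5 FPKM, which leaves 23 members and takes onecut1 out. It was 4 after rescaling by the median ratio (tuba1c and nsg2 added) and 5 after centring on genes of similar length (tubb5 added as well), an alternative chosen after seeing the data. At 3 ng the 1 member was lost (0) with a pseudocount of 5 FPKM and with a filter of 5 FPKM. Over all genes, the length setting gave 780 higher and 905 lower at 6 ng, and rescaling by the median ratio 865 and 881, against 1032 and 745 as reported. A pseudocount of 5 FPKM gave 313 and 215, one of 0.1 FPKM 1615 and 1171, and a filter of 5 FPKM 540 and 391. No member above the filter was 2-fold higher in any comparison under any of these settings, while with a pseudocount of 0.1 FPKM neflb, under the filter, had log2 differences at 6 ng of 1.08 over the control and 1.07 over 3 ng. The median at 6 ng over control ran from -0.37 to -0.18, at 3 ng over control from -0.12 to -0.01, and at 6 ng over 3 ng from -0.36 to -0.19. Among single members, log2 differences moved beyond their counting interval in 4 of 96 cases with a pseudocount of 5 FPKM, 2 of 96 with each rescaling and 0 of 96 with a pseudocount of 0.1 FPKM. No leave-one-out was possible with 1 library a group. No paired analysis was possible because the groups share no replicates. Counting error limits neflb, vamp2, snap25b, syn2a, isl2b, nefma, onecut1 and inab most, each with at most 199 fragments in a library.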

Other observations

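Beside the listed members, a few neuronal genes were higher in the hnrnpaba morpholino libraries, all of them picked after their values were seen. At 6 ng 32 of the 38 neuronal transcription factor genes of the lists were below the control. The same held for 22 of the 32 further tubulin and microtubule genes and 8 of the 16 sensory genes. Over all genes 44.0% were below the control at 6 ng and 56.0% above it. pou4f1, a transcription factor of sensory neurons, stood at 3.67 FPKM at 6 ng, 2.99 FPKM at 3 ng and 1.61 FPKM in the control, with folds over the control of 2.29 (1.69 to 3.13) at 6 ng and 1.86 (1.38 to 2.54) at 3 ng. tlx3b, a factor found in sensory neurons and interneurons, stood at 3.00, 2.51 and 1.76 FPKM in the same libraries. The stathmin genes stmn4 and stmn4l were higher as well, stmn4l at 4.94 FPKM at 6 ng, 4.81 FPKM at 3 ng and 2.38 FPKM in the control.

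The onecut1 relatives onecutl and onecut2, also picked after their values were seen, were below the control too. onecutl stood at 5.81 FPKM at 6 ng, 7.95 FPKM at 3 ng and 10.06 FPKM in the control, with folds of 0.577 (0.495 to 0.672) and 0.790 (0.695 to 0.898). onecut2 stood at 0.963 FPKM at 6 ng, 0.368 FPKM at 3 ng and 2.63 FPKM in the control, from 18, 9 and 53 fragments. It is among the transcription factor genes already counted above, and it passed the filter through its control level.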
